A study of Mus musculus with 2 samples.

Results

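Monocyte-leaning granule-high progenitors are cells that carry the serine proteases and peroxidase of the neutrophil and monocyte granule together with more monocyte than neutrophil transcripts. They made up 1639 of the 10821 cells examined, 841 in the miR-142 wild-type library and 798 in the miR-142 knockout library. A cell was counted when it held at least 8000 unique molecular identifiers (UMIs, each a counted RNA molecule), had less than 10% of them from mitochondrial genes, and carried at least 40 UMIs per 10000 from Elane, Mpo, Prtn3 and Ctsg. Its summed UMIs of Ly86, Irf8, Csf1r, Ccr2, F13a1 and Ly6c2 had to reach 3 and exceed those of Cebpe, S100a8, S100a9, Wfdc21, Lcn2 and Mrgpra2b. The cells were therefore selected on the measured values of these 16 genes, and the levels of those genes are given as a description only.

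Bone marrow LSK cells, sorted as Lin-Sca-1+c-Kit+, came from C57BL/6 mice 8 to 10 weeks old. All mice carried SCLtTA/BCR-ABL, in which a transactivator driven by an SCL (Tal1) element turns on the BCR-ABL oncogene when tetracycline is withdrawn, here for 2 weeks, and which serves as a model of chronic myeloid leukemia (CML). The miR-142 WT CML library came from mice with intact miR-142 (strain label BCR-ABL+), and the miR-142 KO CML library from miR-142 knockout mice (strain label Mir142 KO BCR-ABL+). Each group was 1 library with an unstated number of mice, so no test between groups was possible and every interval below covers counting error only.

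Granulocytes and monocytes share a progenitor in which granule proteases switch on first. IRF8 and KLF4 then direct cells toward the monocyte fate, while C/EBPε and GFI1 direct them toward the neutrophil fate, where proteins such as lipocalin-2 fill the secondary granules. miR-142 is a microRNA of blood cells that lowers the output of messenger RNAs paired to its seed, the bases 2 to 8 at its 5′ end. Its hairpin yields a mature strand from either arm, and both seeds are shown in capitals because the levels of genes that match them are described further on. The RefSeq sequences lie on chr11:87756903-87756925 and chr11:87756867-87756887 of GRCm38.p6, plus strand.
mmu-miR-142a-3p: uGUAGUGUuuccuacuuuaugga
mmu-miR-142a-5p: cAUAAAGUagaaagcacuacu

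The seed of the 3p strand pairs with ACACTAC in a transcript and that of the 5p strand with ACTTTAT. Among the genes named below, 5 that were at least 2-fold higher in the KO members held ACACTAC in the longest annotated 3′ untranslated region (3′ UTR; GENCODE vM21, GRCm38). Cfl2 codes for cofilin-2, Wasl for N-WASP, both regulators of actin, and Gna11 for a G protein alpha subunit. Tsen34 codes for a subunit of the tRNA splicing endonuclease, and Bod1 for a protein that orients chromosomes at the spindle. None of the 16 genes of the rule held ACACTAC, while Gfi1 and Twf1, which were between 1.5-fold and 2-fold higher, did. The sites of the first 5 genes are shown 5′ to 3′ on the transcript strand with the seed match in capitals.
Cfl2 (chr12:54860463-54860485, minus strand): tttcccgatgagtgtACACTACt
Cfl2 (chr12:54860423-54860445, minus strand): catatgagtcttgaaACACTACa
Gna11 (chr10:81530234-81530256, minus strand): tggcagccaggtgacACACTACa
Gna11 (chr10:81529814-81529836, minus strand): ccctgctgctcatatACACTACa
Gna11 (chr10:81529476-81529498, minus strand): tctgtgccatcccatACACTACa
Tsen34 (chr7:3700813-3700835, plus strand): attccagggttttgaACACTACa
Bod1 (chr11:31665636-31665658, minus strand): gtgtgaccctagtagACACTACa
Wasl (chr6:24616236-24616258, minus strand): aaggtgaaatactaaACACTACt

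The members were among the deepest cells of both libraries. Their median was 53454 UMIs and 6271 genes per cell in WT and 38310 UMIs and 5526 genes in KO, against 19443 and 24181.5 UMIs over all cells. Together they held 45452431 and 31463898 UMIs. The matrices were unfiltered, with 1957898 and 2055088 barcodes. The study's stated limits (more than 300 UMIs and under 10% mitochondrial UMIs) would keep 8525 and 7099 of them, beside about 8000 cells captured per sample, and the stricter limits used here kept 5363 and 5458. The libraries shared 4 cell barcodes and no member barcode. Barcodes under 100 UMIs, which hold free RNA, differed between the libraries, with 104 CPM (counts per 1000000 UMIs) from the 6 neutrophil genes of the rule in WT and 750 CPM in KO, and 5849 against 13470.7 CPM from the 4 granule genes. Plasma cell RNA went the other way, with free Igkc at 5683 CPM in WT, against 82.6 CPM in KO. The part that free RNA plays in the differences below was not tested.

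The members took a similar share of all cells in both libraries but a very different share of the granule-high cells. Of all cells they were 15.7% in WT (95% exact binomial interval 14.7 to 16.7) and 14.6% in KO (13.7 to 15.6). Granule-high cells themselves were 20.4% of WT cells and 59.5% of KO cells. Within them the members were 841 of 1096 in WT, or 76.7% (74.1 to 79.2), and 798 of 3245 in KO, or 24.6% (23.1 to 26.1). Neutrophil-leaning cells, in which the neutrophil sum reached 3 and exceeded the monocyte sum, numbered 127 in WT and 2106 in KO, or 11.6% and 64.9% of the granule-high cells. The number of monocyte-leaning cells was thus nearly equal, and the surplus of granule-high cells in KO lay mostly in the neutrophil-leaning class.

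Depth entered the rule because the sums are raw UMIs. With every cell thinned to 8000 UMIs before the rule was applied, 635 WT and 698 KO cells qualified, which were 56.5% and 21.4% of the granule-high cells. Their share of all cells was then 11.8% in WT and 12.8% in KO, so the small difference in the share of all cells changed direction. Lcn2 supplied 68.9% of the members' neutrophil UMIs in WT and 72.1% in KO. Without Lcn2 in the neutrophil sum, 904 WT and 1999 KO cells qualified, 82.5% and 61.6% of the granule-high cells. The KO count of monocyte-leaning cells thus rested on Lcn2, whose free RNA stood at 54.6 CPM in WT, against 367 CPM in KO.

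**Figure D1:**
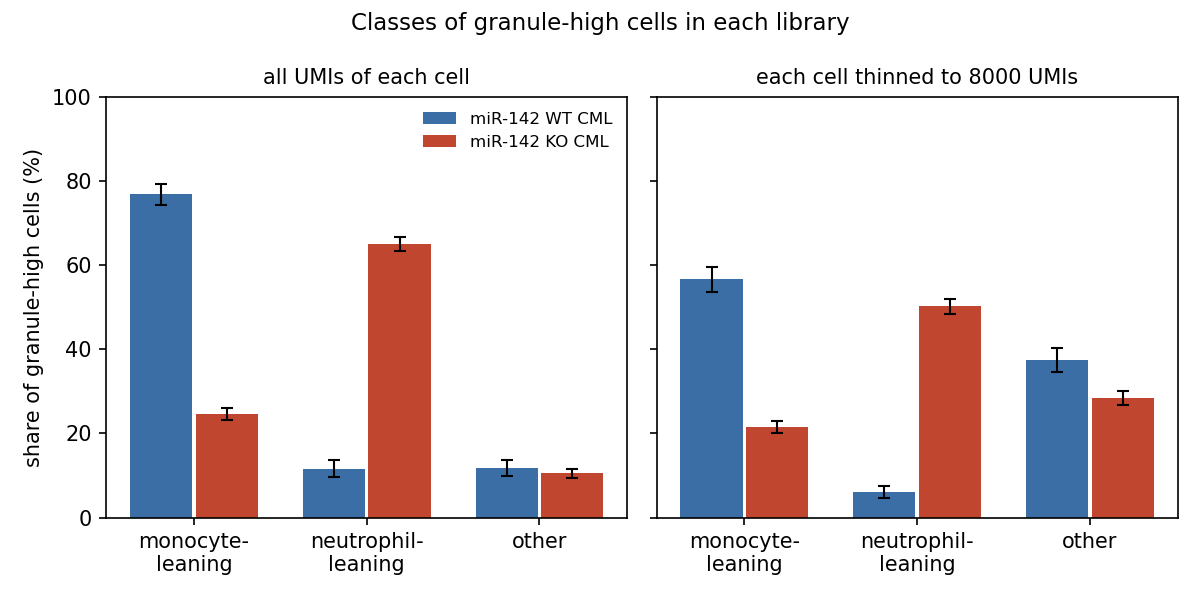
Share of granule-high cells (%) that were monocyte-leaning, neutrophil-leaning or neither, in the miR-142 WT CML (blue) and KO CML (red) library, with all UMIs (left) and with each cell thinned to 8000 UMIs (right); bars start at 0 and error lines are 95% exact binomial intervals. Monocyte-leaning cells were 76.7% in WT and 24.6% in KO on the left, and 56.5% and 21.4% on the right.

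More KO than WT members lay near the border with the neutrophil-leaning class. The monocyte sum exceeded the neutrophil sum by only 1 UMI in 15 WT and 80 KO members, and equalled it at 3 or more UMIs in 11 WT and 63 KO cells that were left out. At the lower bound of the monocyte sum, 26 WT and 43 KO members held exactly 3 UMIs, while 33 WT and 43 KO granule-high cells held 2 and stayed outside. The median member had 38 monocyte and 4 neutrophil UMIs in WT, and 25 and 15 in KO. At the granule bound, 45 WT and 21 KO members held 40 to 44 granule UMIs per 10000, against 48 WT and 16 KO cells that met the rest of the rule at 36 to 40.

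The 6 monocyte genes that chose the cells did not differ together. Ly86, the partner of the toll-like receptor RP105, stood at 79.6 CPM in WT, against 36.5 CPM in KO members, a log2 ratio of KO over WT of -1.13 (95% counting interval -1.22 to -1.03). Irf8, the monocyte transcription factor, was at 171 and 101 CPM (-0.76), and Ccr2, the receptor that draws monocytes out of the marrow, at 175 and 109 CPM (-0.69). Csf1r, the receptor for the monocyte growth factor M-CSF, was low in both, at 25.4 and 18.6 CPM (-0.45, interval -0.59 to -0.30). These 4 were lower in KO, whereas Ly6c2, the surface marker of classical monocytes, was at 281 and 284 CPM. With Lcn2 left out of the neutrophil sum the log2 ratio of Ly6c2 was -0.60, that of Irf8 -1.47 and that of Ly86 -2.05. F13a1, the coagulation factor XIII A chain made by monocytes, was higher in KO, at 191 and 304 CPM (0.67, 0.63 to 0.71).

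Since their sum was nearly the same, at 922 CPM in WT, against 853 CPM in KO, the genes supplied different parts of it. F13a1 gave 20.7% of the members' monocyte UMIs in WT and 35.6% in KO, and Irf8 gave 18.5% and 11.9%. At a common depth of 8000 UMIs per cell, 41.0% of KO members showed F13a1 without Irf8, against 16.3% of WT members. Irf8 without F13a1 was seen in 22.5% of WT and 9.27% of KO members, and both in 42.6% and 38.3%. A reference class, the megakaryocyte/erythroid gene-high cells, was taken from cells below the granule bound with at least 5 UMIs in sum from Pf4, Gp9, Itga2b, Klf1, Gata1 and Car1. It is named for that rule only, since it held more mast cell and basophil RNA (8132 CPM in WT, 18416.9 CPM in KO) than erythroid or megakaryocyte RNA. Its median was 19830 UMIs in WT and 15295 in KO, and after thinning to the same depth F13a1 was seen in 0.847% and 2.82% and Irf8 in 4.41% and 3.20%. Since both genes helped to select the members, their higher shares there are given as a description.

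The members of the WT library more often carried many monocyte genes at the same time. At 8000 UMIs, 5 or all 6 of the monocyte genes were seen in 128 and 28 of the 841 WT members, and in 47 and 5 of the 798 KO members. The most common number was 2 in either library, in 22.4% of WT and 31.0% of KO members. Irf8 and Csf1r appeared together in 12.4% of WT and 6.39% of KO members, while F13a1 and Ly6c2 appeared together in 36.9% and 42.1%.

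The granule genes were strong in both libraries but in different proportions. Prtn3, coding for proteinase 3, was the leading granule gene at 5416 CPM in WT, against 5790 CPM in KO members. Elane, coding for neutrophil elastase, was at 1603 and 2811 CPM (log2 ratio 0.81), and Ctsg, coding for cathepsin G, at 2956 and 4814 CPM (0.70). Mpo, coding for myeloperoxidase, went the other way, at 2796 and 1885 CPM (-0.57). Mpo (chr11:87793581-87804413, GRCm38) is a near neighbour of the host gene of miR-142 (chr11:87755577-87757270), and whether the targeted allele bears on its level was not tested.

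Neutrophil transcripts were present at low levels in the members, and Lcn2, Mrgpra2b, Wfdc21 and Cebpe were higher in KO. Wfdc21 had 543 UMIs in WT and 1029 in KO members (log2 ratio 1.45). Lcn2, coding for lipocalin-2, stood at 117 CPM in WT, against 333 CPM in KO members (log2 ratio 1.51), and was seen at 8000 UMIs in 40.5% and 72.8% of them, against 2.03% and 7.16% of the megakaryocyte/erythroid gene-high cells. Mrgpra2b, a receptor gene of neutrophils, was at 19.3 and 57.7 CPM (1.58), and Cebpe, the factor for secondary granules, at 8.10 and 21.4 CPM (1.40). S100a8 and S100a9, the calprotectin genes of mature neutrophils, stayed at 16.2 CPM or less in the members of either library. S100a9 was lower in KO, with 80 UMIs in WT members and 34 in KO members. The secondary granule genes Ngp, Camp and Ltf had at most 1 UMI in all members of a library. Ngp, Camp and Ltf were thus near 0 in these cells, while Lcn2 was not.

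Across the transcriptome the members of the 2 libraries were close. Of 5322 genes at 20 CPM or more in either library, 44 (0.827%) were 2-fold or more higher in KO, 23 (0.432%) were 2-fold or more lower, and 126 (2.37%) and 58 (1.09%) passed 1.5-fold in these directions. The median log2 ratio over these genes was -0.07. With 1 library per group, these are counts of genes past a fold and not of tested changes.

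**Figure D2:**
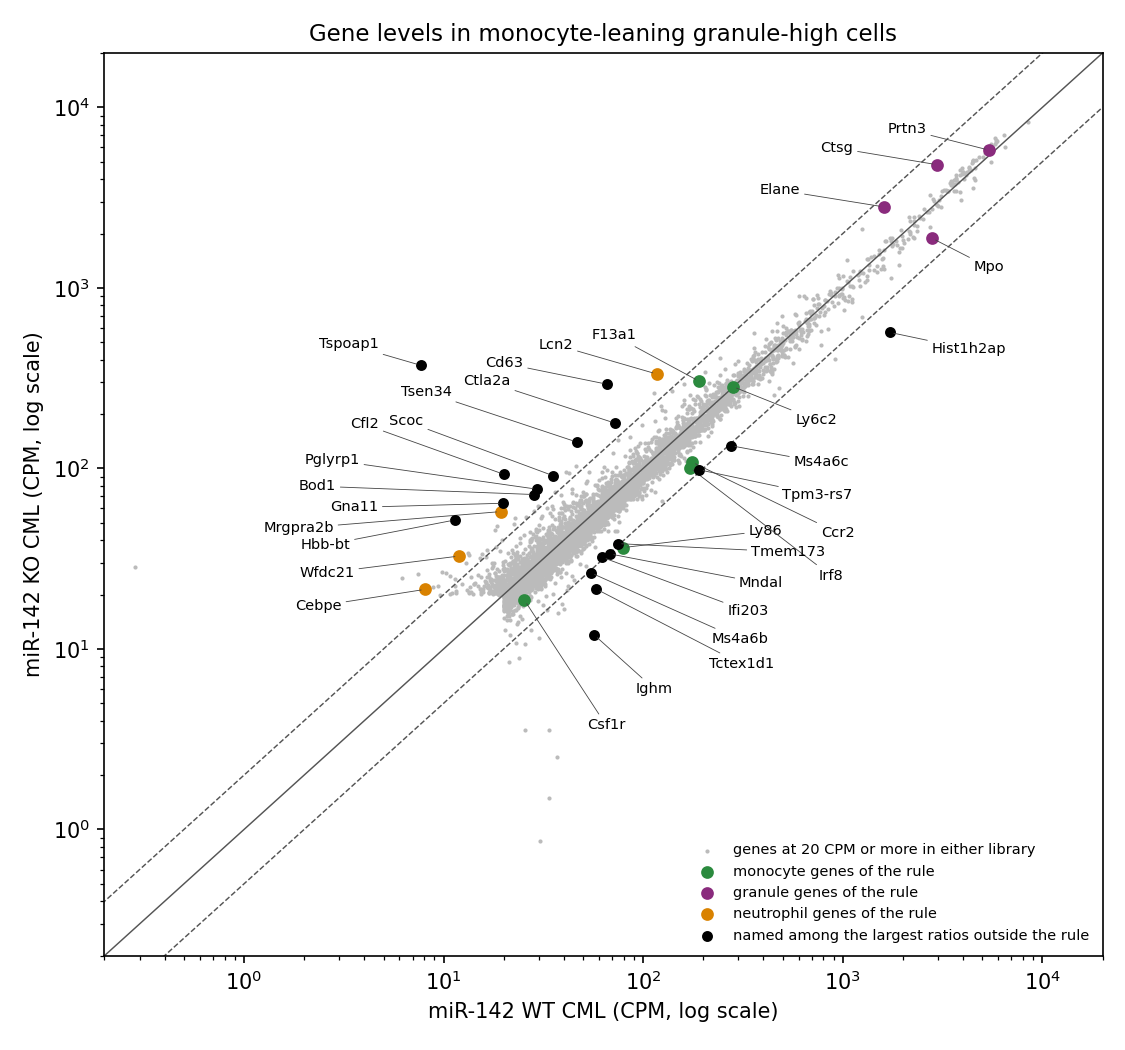
Level of each gene in the summed members of the miR-142 WT CML (x axis) and KO CML (y axis) library, in CPM on log scales, for the 5322 genes at 20 CPM or more in either; the solid line marks equal levels and the dashed lines a 2-fold ratio. Lcn2, Elane and F13a1 lay above the line of equal levels and Irf8, Ccr2 and Ly86 below it.

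Outside the rule, genes of the targeted locus differed. Mir142hg, the host transcript of the microRNA, had 249 UMIs in WT members (5.48 CPM) and 7 in KO members (0.222 CPM). Tspoap1, a gene beside it on chromosome 11, stood at 7.68 CPM in WT, against 373 CPM in KO members, the largest ratio of any gene at 50 CPM or more (log2 5.60, 5.45 to 5.76). It was as different in neutrophil-leaning cells (5.39) and stood at 356 CPM in KO free RNA. Of the other neighbours, Supt4a was at 171 and 127 CPM (-0.43).

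Genes with a miR-142a-3p seed match were more frequent among those higher in KO members than among all genes. A 3′ UTR was annotated for 5235 of the tested genes, and ACACTAC was searched in its transcript strand only. It was present in 326 genes, or 6.23%, and in 28 of the 122 genes with a 3′ UTR that were at least 1.5-fold higher in KO, or 23.0%. Among the 52 genes at least 1.5-fold lower it was present in 4, or 7.69%. Read the other way, 8.59% of the genes with the match were at least 1.5-fold higher, against 2.33% of all genes with a 3′ UTR.

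The shift was carried by a minority of the matched genes. Their median log2 ratio was -0.01, beside -0.07 over all genes with a 3′ UTR, and 47.5% of them were above 0 against 37.3%. Their 3′ UTRs were longer, with a median of 2314.5 against 946 bases, whereas the genes at least 1.5-fold higher had a median of 642 bases. ACTTTAT, the match to the 5p seed, was present in 14.7% of all genes and in 10.7% of those at least 1.5-fold higher, so it was not more frequent among them. A match is a string of letters and was not tested as a binding site.

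**Figure D3:**
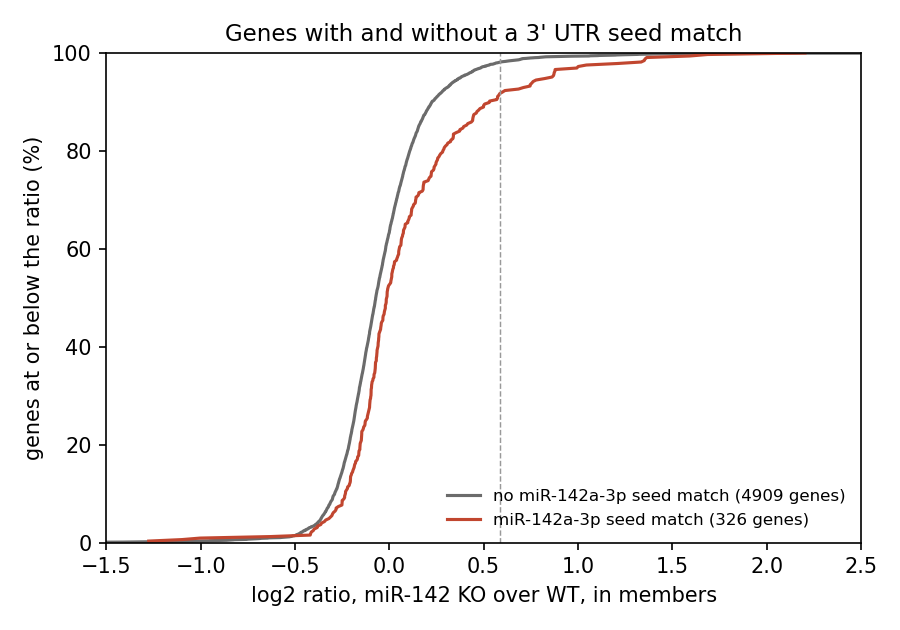
Cumulative share of genes (%) against the log2 ratio of KO over WT in the members, for the 326 genes with ACACTAC in the 3′ UTR (red) and the genes without it (grey); the dashed line marks 1.5-fold. The red curve runs to the right of the grey one above a ratio of 0, and 8.59% of the matched genes lay at 1.5-fold or above.

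Of 22 listed genes that are published miR-142 targets or that the study followed, 12 reached 20 CPM, and 5 of these passed 1.5-fold on the side of KO and 0 on that of WT (median log2 0.15). Over all tested genes, 2.37% and 1.09% passed 1.5-fold in these directions, and the median was -0.07. Cfl2 stood at 20.1 CPM in WT, against 92.6 CPM in KO members (2.20, 2.10 to 2.31), and Gna11 at 19.9 and 64.1 CPM (1.69). Bod1 was at 28.4 and 71.7 CPM (1.34), Wasl at 10.3 and 26.3 CPM (1.36), and Twf1, coding for the actin monomer binder twinfilin-1, at 34.9 and 61.8 CPM (0.82). Actin regulators were 3 of these 5, a tally that depends on how the list was put together and was not tested as a theme. Rac1, Rock2, Kif5b, Tab2, Gnb2, Nfe2l2 and Msi2 did not reach 1.5-fold, with log2 ratios between -0.17 and 0.16. Tsen34, which was not on the list, stood at 46.4 and 140.0 CPM (1.59).

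The same genes had similar ratios in the neutrophil-leaning cells of these libraries, where Cfl2 had a log2 ratio of 2.09, Gna11 of 1.97, Tsen34 of 1.78, Bod1 of 1.22 and Wasl of 1.13. The difference was thus seen in both classes of granule-high cells. Of the genes of fatty acid oxidation that the study followed, Cpt1a was at 17.2 and 19.4 CPM in the members (0.17, 0.02 to 0.33), and Cpt1b was near 0 in both, at 0.748 and 1.05 CPM.

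Monocyte genes that the rule did not use differed in both directions. Of 25 listed, 14 reached 20 CPM, and 10 of these had a ratio below 0 and 4 above, where 37.5% of all tested genes were above 0 (median log2 -0.30, beside -0.07 over all genes). Of the 14, 3 were at least 1.5-fold lower and 2 at least 1.5-fold higher, beside 1.09% and 2.37% of all tested genes. Ctss, coding for the lysosomal protease cathepsin S of antigen-presenting cells, stood at 37.5 CPM in WT, against 15.8 CPM in KO members (log2 -1.24, -1.39 to -1.10, and -1.88 with Lcn2 left out of the neutrophil sum). Ms4a6c, a membrane gene of the monocyte lineage, was at 275 and 134 CPM (-1.04), and was seen at 8000 UMIs in 78.6% and 57.1% of members, against 17.1% and 10.5% of the megakaryocyte/erythroid gene-high cells. Zeb2, a transcription factor of monocytes and dendritic cells, was at 115 and 74.0 CPM (-0.63).

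Some of the defining monocyte genes were too low for the limit of 20 CPM. Klf4, the factor that acts below IRF8 in monocyte development, was at 13.3 CPM in WT, against 5.75 CPM in KO members (-1.21, -1.45 to -0.96). Cx3cr1, the fractalkine receptor, was at 7.06 and 2.51 CPM (-1.49), so beyond the genes of the rule these defining markers were scarce. Higher in KO were Lyz2, coding for lysozyme, at 128 and 207 CPM (0.70), Fcgr3, an Fc receptor shared with neutrophils, at 45.9 and 70.9 CPM (0.63), and Cst3, coding for cystatin C, at 496 and 701 CPM (0.50). These 3 genes are also expressed by granulocytes or widely among cells.

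Among the 10 largest ratios on the lower side outside the rule, 3 genes that were on no monocyte list were also low in the megakaryocyte/erythroid gene-high cells. Ms4a6b, a relative of Ms4a6c in the same gene cluster whose reads may be shared with it, was at 54.7 and 26.4 CPM (-1.05). Tmem173, coding for the DNA sensor adaptor STING, was at 74.4 and 38.3 CPM (-0.96). Tctex1d1, named for its dynein light chain domain, was at 58.2 and 21.5 CPM (-1.44), against at most 0.225 CPM in the megakaryocyte/erythroid gene-high cells of either library. Ms4a6b and Tmem173 stood there at 15.3 CPM or less.

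The other genes at this end of the ranking were of different kinds. Hist1h2ap, a histone gene, was at 1720.0 and 567 CPM (-1.60) and was about as different in the neutrophil-leaning cells (-1.74). Tpm3-rs7, which is nearly identical to Tpm3 and may share its reads, was at 191 and 98.3 CPM (-0.96). Ighm, the immunoglobulin mu chain, was at 56.9 and 11.95 CPM (-2.25, from -3.27 with Lcn2 left out of the neutrophil sum to -1.47 with a monocyte sum at least 2 times it), while free RNA held 1886 CPM of it in WT, against 15.1 CPM in KO. Igkc, the kappa chain made by B and plasma cells, was at 30.3 and 0.858 CPM in the members. Both moved with the free RNA of the libraries, and its part in their difference was not tested.

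Early neutrophil genes outside the rule were higher in the KO members. All 11 of 13 that reached 20 CPM had a ratio above 0 (median log2 0.34), where 37.5% of all tested genes did. Of the 11, 4 were at least 1.5-fold higher, beside 2.37% of all tested genes. Cd63, coding for a tetraspanin of granule membranes that is also abundant in mast cells and megakaryocytes, stood at 65.8 CPM in WT, against 293 CPM in KO members (2.15, 2.09 to 2.21). It was at 527 and 1530.2 CPM in the megakaryocyte/erythroid gene-high cells and at 244 and 630.4 CPM in free RNA, so the difference was not limited to the members. Gstm1, a glutathione transferase of early granulocytes, was at 140 and 268 CPM (0.94), and Gfi1, the repressor that favours the neutrophil fate, at 25.4 and 42.6 CPM (0.75).

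The other early genes differed less. Hp, coding for haptoglobin, was at 357 and 561 CPM (0.65), and Ms4a3, a membrane gene of granulocyte-monocyte progenitors, at 949 and 1181 CPM (0.32). Prss57, coding for a further granule protease, was at 145 and 170 CPM (0.22). Free RNA held more of these transcripts in KO, at 397 and 1143 CPM for Ms4a3 and 126 and 385 CPM for Hp. Of the 14 genes of the late neutrophil list, 2 reached 20 CPM, and they differed in direction. Pglyrp1, a peptidoglycan recognition protein of neutrophil granules, was at 29.4 and 76.7 CPM (1.39), while Anxa1 was lower in KO (-0.31).

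**Figure D4:**
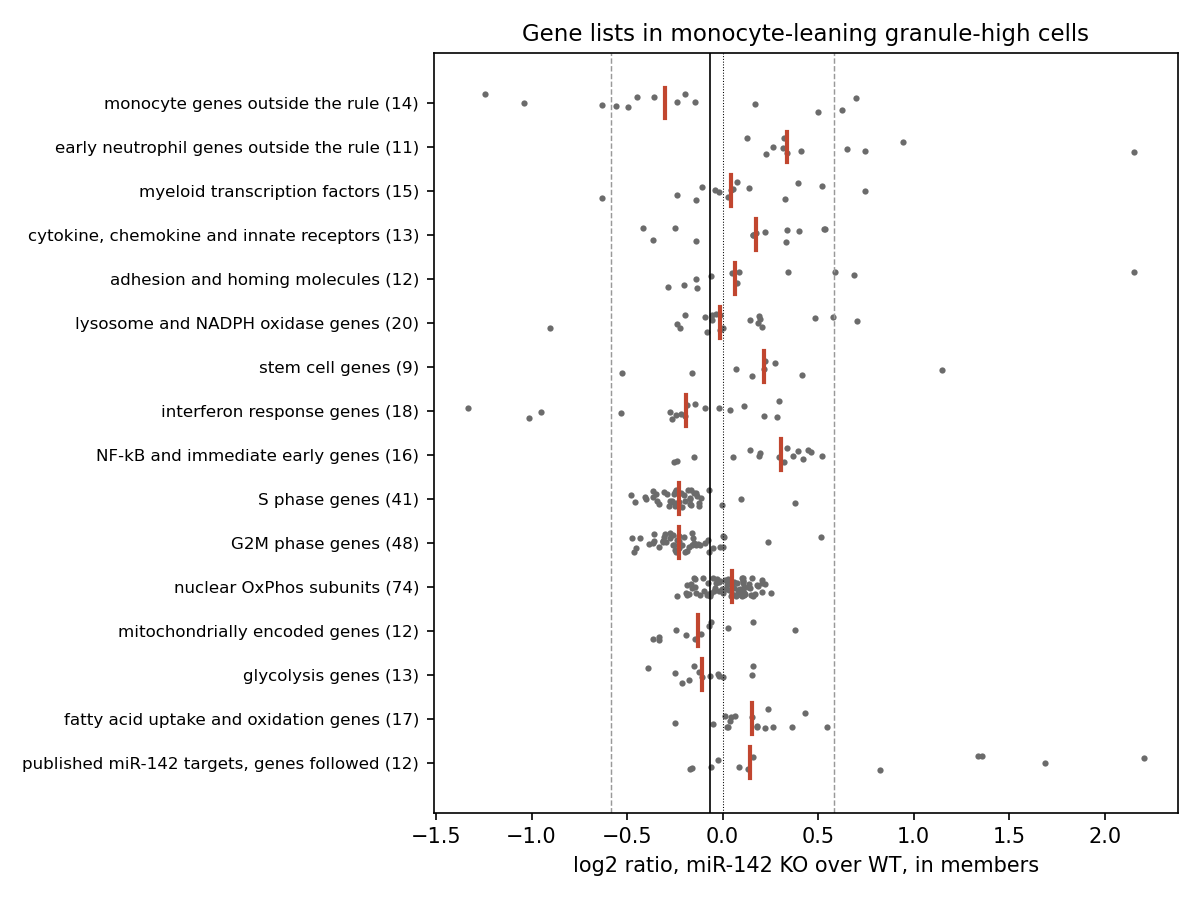
Log2 ratio of KO over WT in the members for each gene of 16 lists that reached 20 CPM (points; number of genes in brackets), with list medians in red; the solid line is the median of all tested genes, -0.07, the dotted line 0 and the dashed lines 1.5-fold. Monocyte genes outside the rule had a median of -0.30 and early neutrophil genes of 0.34.

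Other transcription factors of the myeloid lineage were nearly level. Of 22 listed, 15 reached 20 CPM with a median log2 of 0.05, and 1 passed 1.5-fold in each direction (Gfi1 higher, Zeb2 lower). Over all tested genes, 2.37% were at least 1.5-fold higher and 1.09% lower. Spi1, coding for the master factor PU.1, was at 266 CPM in WT, against 247 CPM in KO members, and Cebpa, needed for the granulocyte-monocyte progenitor, at 71.8 and 69.9 CPM. Myc was at 169 and 167 CPM. Myb, a factor of immature progenitors, was at 203 and 254 CPM (0.32).

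Of 24 receptor genes listed, 13 reached 20 CPM and 0 passed 1.5-fold, with a median log2 of 0.17. Csf3r, the G-CSF receptor, was at 26.3 and 29.6 CPM (0.17, 0.05 to 0.30), and Csf2ra, the GM-CSF receptor alpha chain, at 48.0 and 56.0 CPM. Flt3 stood at 28.9 and 32.2 CPM and Kit at 42.9 and 54.2 CPM. Tnfrsf1a and Ifngr2, receptors for TNF and interferon gamma, had the largest ratios on the list, 0.53 each.

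Of 22 lysosome and NADPH oxidase genes, 20 reached 20 CPM (median log2 -0.02), with Psap, coding for prosaposin, at least 1.5-fold lower at 124 and 66.2 CPM (-0.90), and Ctsl, coding for cathepsin L, at least 1.5-fold higher, at 52.6 and 85.7 CPM (0.70). Over all tested genes, 1.09% and 2.37% passed 1.5-fold in these directions. The oxidase subunits Cyba, at 286 and 330 CPM, and Ncf1, at 75.6 and 64.6 CPM, stayed within 1.5-fold. Among 12 tested adhesion genes the median was 0.06 and 3 were at least 1.5-fold higher, beside 2.37% of all tested genes. They were Cd63 and, at lower ratios, Cd9 and Itgb7.

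Stem cell genes did not share a direction. Of 20 listed, 9 reached 20 CPM, 7 of them above 0 and 2 below (median log2 0.22), where 37.5% of all tested genes were above 0. Only Ly6a passed 1.5-fold, on the side of KO, as did 2.37% of all tested genes. Ly6a encodes Sca-1, which was itself used to sort the cells, and was at 42.6 CPM in WT, against 94.2 CPM in KO members (1.15). It was also higher in the KO megakaryocyte/erythroid gene-high cells, at 64.2 and 311 CPM. Sox4 was at 109 and 75.6 CPM (-0.53), and Hlf, a factor of the most primitive cells, was at 11.9 and 7.85 CPM.

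Macrophage and eosinophil lists were near 0, while some genes of the dendritic, innate lymphoid and mast cell lists were present. The dendritic cell list summed to 423 and 404 CPM, and 5 of its 18 genes reached 20 CPM with 0 past 1.5-fold, among them Bst2 at 222 and 187 CPM and H2-DMa at 84.8 and 108 CPM. Of its other genes, Cd209a and Siglech had at most 4 UMIs, and Cd74 and H2-Aa, the invariant and alpha chains of MHC class II, at most 1.47 CPM. The macrophage list summed to 2.53 CPM in WT, against 1.84 CPM in KO members, and Cd3e of T cells had 0 UMIs in both. The list of T and innate lymphoid cells summed to 2.02 and 38.7 CPM, and 1 of its 9 genes reached 20 CPM. This was Calca, a calcitonin gene named after its values were seen, at 0.286 and 28.4 CPM (6.64, and 4.86 with a monocyte sum at least 2 times the neutrophil sum). Free RNA held 7.71 and 155 CPM of Calca. The eosinophil list summed to 0.506 and 0.381 CPM. Mast cell and basophil genes summed to 206 and 163 CPM in the WT and KO members. Prss34, a basophil protease, was at 33.8 and 1.49 CPM (-4.50), but at 8000 UMIs it was seen in only 1.90% of WT and 0.627% of KO members. Its log2 ratio ranged from -5.63, with a monocyte sum at least 2 times the neutrophil sum, to -0.87, with Lcn2 left out of the neutrophil sum.

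Erythroid and megakaryocyte genes were lower than in the megakaryocyte/erythroid gene-high cells, which were selected on genes of these lineages, so this is a description. The lists summed there to 1006 and 754 CPM and to 1041 and 1410.2 CPM. The 11 erythroid genes summed to 50.4 and 92.1 CPM, of which Hbb-bt, an adult beta globin, made 11.4 and 51.8 CPM (2.19, and 2.86 with a monocyte sum at least 2 times the neutrophil sum, free RNA 90.0 and 161 CPM), and the 9 megakaryocyte genes to 214 and 205 CPM. Klf1 and Pf4, defining genes of these lineages, were at 1.88 CPM or less. Ctla2a, which is rich in that compartment (1237 and 3323 CPM), was at 72.2 and 178 CPM (1.30).

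Cell cycle genes were slightly lower in KO as a body. Of the 41 S phase genes tested, 39 had a ratio below 0 (median log2 -0.23), and of the 48 G2M genes 43 (median -0.23), but 0 of either list passed 1.5-fold in either direction. All tested genes also leaned this way, with 37.5% above 0 and a median of -0.07. Rrm2, coding for a subunit of ribonucleotide reductase, was at 210 and 151 CPM (-0.48), and Top2a, coding for topoisomerase II alpha, at 376 and 293 CPM (-0.36). The neutrophil-leaning cells had like medians, -0.21 and -0.20.

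Energy metabolism differed by small amounts. The 74 nuclear OxPhos subunits had a median of 0.05 with 0 past 1.5-fold, and their summed level was 32886 CPM in WT, against 33764 CPM in KO members. Of 12 genes encoded in the mitochondrial genome 3 were above 0, beside 37.5% of all tested genes, with a median of -0.13 and 0 past 1.5-fold. The lowest ratio was that of mt-Nd2 at 653 and 507 CPM (-0.37). The glycolysis list had a median of -0.11 and the fatty acid list of 0.15, the latter with 15 of 17 tested genes above 0 and 0 past 1.5-fold. Etfb, an electron carrier of fatty acid oxidation, was at 470 and 635 CPM (0.43).

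Of 18 tested interferon response genes, 13 were below 0 and 5 above, where 37.5% of all tested genes were above 0 (median log2 -0.19). Of the 18, 3 were at least 1.5-fold lower and 0 at least 1.5-fold higher, beside 1.09% and 2.37% of all tested genes. Mndal and Ifi203, from the DNA-sensing Ifi200 cluster whose members share sequence, were at 68.0 and 33.6 CPM (-1.02) and at 62.3 and 32.2 CPM (-0.95), whereas Ifitm3 was at 1078 and 898 CPM. The other gene was Trim30a, named after its values were seen (-1.33). The ratios of Mndal and Ifi203 were about the same in the neutrophil-leaning cells (-1.11 and -0.94). Of 16 tested NF-kB and immediate early genes, 13 were above 0 (median 0.31), beside 37.5% of all tested genes, and 0 passed 1.5-fold. Fos was at 181 and 238 CPM and Egr1 at 49.0 and 70.4 CPM. In members with 3 or fewer monocyte UMIs at the common depth, Fos had a log2 ratio of 0.93, Egr1 of 0.86 and Junb of 0.47. In members with 7 or more, these ratios were -0.12, -0.13 and -0.10. Jund, Dusp1 and Nfkbia stayed above 0 there, at 0.24, 0.10 and 0.47. The cause of this change with monocyte UMIs was not tested.

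The members varied among themselves in how many monocyte UMIs they held. By their monocyte-gene UMIs at a common depth of 8000 UMIs, 293 WT and 275 KO members held 3 or fewer, 185 and 198 held 4 to 6, and 363 and 325 held 7 or more. The highest stratum thus held 43.2% of the WT and 40.7% of the KO members, so the mix of strata was alike. The upper stratum was also the deeper one, with medians of 60369 UMIs in WT and 45732 in KO, against 44341 and 28678 in the lowest. Since the strata were cut from 6 genes of the same cells, the other genes are described across them without a test.

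Some genes were highest in the lowest stratum, Cd34 among them. Of 2678 genes compared, those outside the rule with the largest drop in both libraries were led by Nrgn (61.5 to 10.96 CPM in WT and 94.3 to 16.6 CPM in KO) and Ctla2a (148 to 37.0 and 343 to 85.9 CPM). Adgrg1, the stem cell adhesion receptor GPR56, went from 140 to 29.7 CPM in WT and from 167 to 53.6 CPM in KO. Cd34, the progenitor antigen, went from 246 to 99.1 and from 263 to 137 CPM.

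Other genes ran in the opposite direction. Fcgr3 had the largest increase of the genes outside the rule when the smaller of the WT and KO ratios was ranked, from 14.6 to 69.2 CPM in WT and from 18.4 to 105 CPM in KO. Dmkn went from 49.8 to 166 and from 57.3 to 266 CPM, and Ifi30, coding for a lysosomal thiol reductase, from 44.8 to 144 and from 35.2 to 93.8 CPM. Gstm1 and Hp, from the early neutrophil list, were also higher in the upper stratum, Hp from 206 to 463 and from 276 to 739 CPM.

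Some monocyte genes, and Psap of the lysosome list, differed more across the strata in WT than in KO, while other monocyte genes did not. Highest over lowest stratum, Ctss had a log2 ratio of 1.55 in WT and 0.72 in KO, and Fcgr3 of 2.24 and 2.52. Klf4 went from 3.47 to 22.3 CPM in WT and from 4.86 to 6.87 CPM in KO, so the log2 ratio of KO over WT was 0.49 in the lowest stratum and -1.70 in the highest. Psap went from 90.1 to 155 CPM in WT and from 61.6 to 73.2 CPM in KO, with ratios of -0.55 and -1.08. The course of the 6 monocyte genes themselves is set by the way the strata were cut, and that of the 6 neutrophil genes is bounded by the rule. Mpo, one of the granule genes of the rule, stood at 2145 CPM in the lowest WT stratum and 984 CPM in the lowest KO stratum, and at 3148 and 2403 CPM in the highest. Whether any gap between strata exceeds the spread between mice was not tested.

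**Figure D5:**
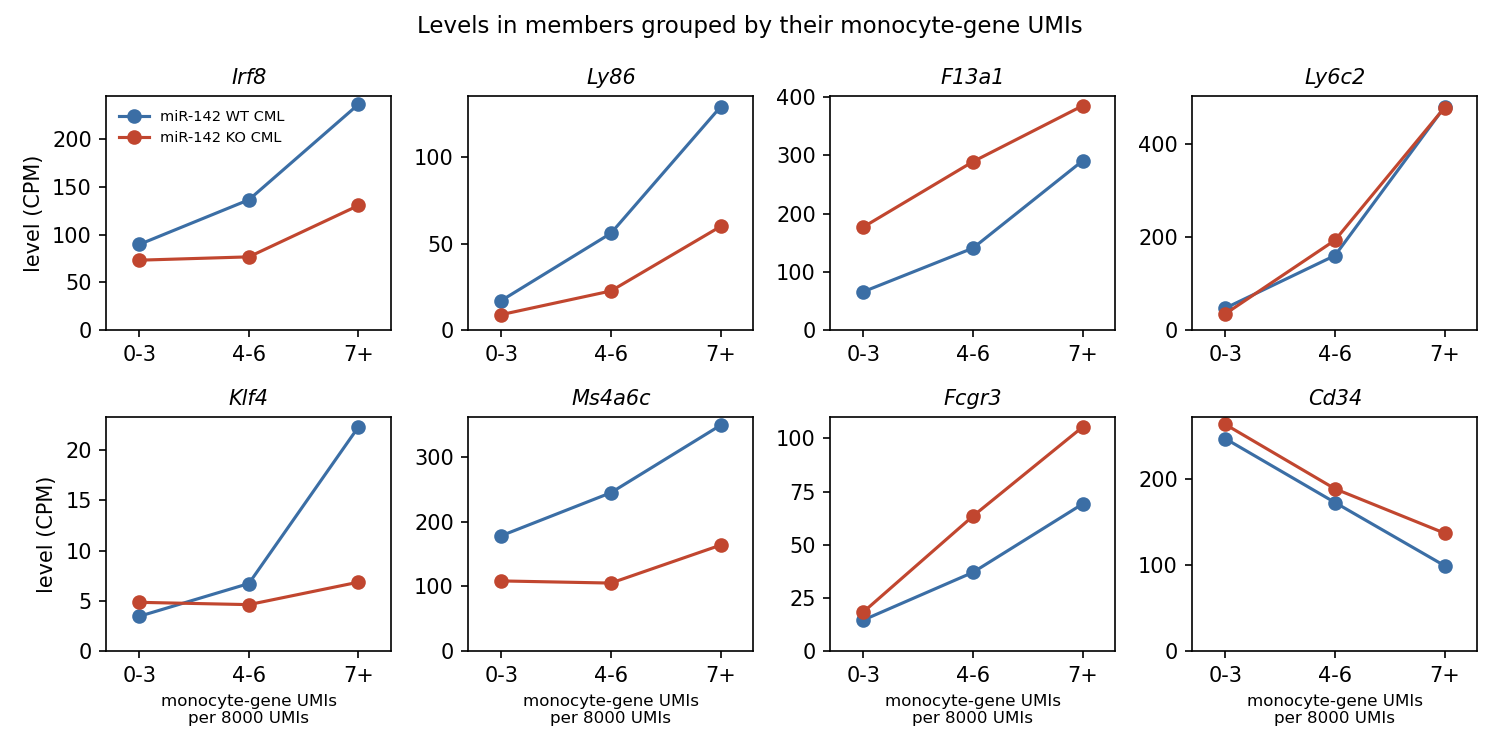
Level (CPM) of 8 genes in members grouped by their monocyte-gene UMIs per 8000 UMIs (0 to 3, 4 to 6, 7 or more), in the miR-142 WT CML (blue) and KO CML (red) library; each point is the summed UMIs of 185 to 363 cells and every y axis starts at 0. Klf4 reached 22.3 CPM in the highest WT stratum and 6.87 CPM in the highest KO stratum; Irf8, Ly86, F13a1 and Ly6c2 are among the genes that defined the strata.

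Compared with the neutrophil-leaning cells of the same library, the members held more of a shared set of genes outside the rule. By the smaller of the WT and KO log2 ratios of members over neutrophil-leaning cells, at 50 CPM or more in the members, Ms4a6c came first with 1.44 in WT and 1.06 in KO. Ifi30 followed with 1.28 and 0.88, then Glipr1 with 0.70 and 0.64. Pou2f2, coding for the transcription factor OCT2, had 0.61 and 0.75, and Unc93b1, the carrier of endosomal toll-like receptors, 0.90 and 0.56. Ctsc, Emb, Zeb2, Milr1 and Gria3 completed the 10, each between 0.53 and 0.99 in both libraries. Ctsc codes for the protease that activates the granule proteases, Emb for the adhesion protein embigin and Milr1 for an inhibitory receptor of mast cells. The classes were cut from genes of the same cells, so these ratios are a description.

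The KO over WT ratio of several genes had a different size in the 2 classes, which was not tested. Ly86 had a log2 ratio of -1.13 in the members and -0.41 in the neutrophil-leaning cells (5.76 and 4.34 CPM), and Klf4 of -1.21 and -0.09. F13a1 had 0.67 in the members and 1.55 in the neutrophil-leaning cells (55.8 and 163 CPM), and Cd63 had 2.15 and 0.996. Irf8, at -0.76 and -0.71, and Ccr2, at -0.69 and -0.52, had similar ratios in both. Of these genes only Klf4 and Cd63 lie outside the rule, and the ratios of the others within a class are bounded by it. Mast cell and basophil genes summed to 2353 CPM in the 127 WT neutrophil-leaning cells and 543 CPM in the KO ones. In the members they summed to 206 and 163 CPM, and their part in the ratios of either class was not tested.

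The transgene could not be read from these counts, which hold mouse genes only. Tal1, whose element drives the transactivator, was at 12.7 CPM in WT, against 10.4 CPM in KO members, mouse Bcr at 13.9 and 10.2 CPM and mouse Abl1 at 12.3 and 12.2 CPM. These 3 genes were named after their values were seen.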

How the data were processed

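Bone marrow LSK cells were profiled with a 10x Genomics 3′ kit, 1 library per group. Per the file headers and labels, the authors counted UMIs with Cell Ranger (version 4 in the headers, 6.1.2 in the processing notes, which name build mm10), and deposited whole-number UMI counts for every gene and barcode, without a filter on cells. UMIs were summed over the cells of a class and scaled to CPM, and ratios got exact conditional binomial 95% intervals and shares exact Clopper-Pearson intervals (scipy 1.17.1). Genes at 20 CPM in either library were compared. Cells were thinned to 8000 UMIs without replacement where shares of cells or strata are given. Scrublet (scanpy 1.11.5) marked only 1 and 0 cells at its own threshold, so it had not worked. The top-scoring 4.29% and 4.36% (0.8% per 1000 cells) were instead left out as an alternative; they held 6.54% and 6.27% of the members. The ratio code was tested on simulated data. Alternatives changed the depth, the bounds and genes of the rule, the scaling and the limit on low counts. No batch is labelled.

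The members and gene lists were chosen with earlier results of these data known. Named genes were the 16 of the rule, the 10 largest ratios each way at 50 CPM, key genes of each list with up to 3 more at 50 CPM, and the 10 that most set members apart from neutrophil-leaning cells. No gene passed 1.5-fold in opposite directions in those classes. Genes named in the strata comparison and those said so were chosen after their values were seen. Of the genes these rules name, 2 are not reported here. Aldoa, a symbol on more than 1 feature, was not used. Coordinates are from GENCODE vM21.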

Additional observations from a re-analysis of the deposited data

Results flagged for a closer look

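Barcodes below the depth limit held a few cells that met the rest of the rule. Of the barcodes with 1000 to 8000 UMIs, 8 of 1687 in the WT library and 7 of 1384 in the KO library did so. Their median depth was 4405 and 5433 UMIs, and their median monocyte sum was 3 in both libraries, the lowest the rule admits. They were not used in any comparison.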

How the results depend on the processing

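Each group held 1 library, so no spread between mice could be measured and no replicate could be left out. No paired analysis was possible because each group held 1 library. Of 161 named genes at 20 CPM or more, 49 were at least 1.5-fold apart, and these 49 kept their direction in all 15 alternatives, with 38 past 1.5-fold in each. The causes of the shifts below were not tested, and the Lcn2 alternative was chosen after seeing the data.

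The KO minus WT difference in the members' share of all cells, -1.06 points, was 0.948 with cells thinned before the rule, 0.659 with Mpo left out of the granule sum, -2.53 with a minimum of 12000 UMIs, -7.31 with a monocyte sum at least 2 times the neutrophil sum and 19.8 with Lcn2 left out. In the share of granule-high cells the difference of -52.1 points kept its direction, at -35.1 (thinned), -61.2 (granule minimum of 80), -56.6 (no Mpo), -48.5 (monocyte sum of at least 6), -56.7 (2 times the neutrophil sum) and -20.9 (no Lcn2). With a limit of 50 CPM, 21 genes were at least 2-fold higher and 8 lower, and 60 and 25 passed 1.5-fold; with none, 1014, 826, 1791 and 1379. The 2-fold lower count was 15 with 2 times the neutrophil sum, and the 1.5-fold lower count 88 without Lcn2. The median log2 ratio of monocyte genes outside the rule, -0.30, stayed below 0, at -0.58 (thinned), -0.47 (granule minimum of 80), -0.39 (no Mpo), -0.40 (monocyte sum of at least 6), -0.22 (2 times the neutrophil sum), -0.53 (no Lcn2), -0.35 (totals without genes of the rule), -0.21 (mean over cells) and -0.45 (no limit on low counts).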
